A study of Mus musculus with 4 samples.

Results

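The genes described here are 39 genes that encode the contractile machinery, the calcium release apparatus and the energy enzymes of skeletal muscle, measured in RNA of mouse dorsal root ganglia. A gene was included by name, and its values come from the probe sets of the array whose annotated symbol was that name. All 39 had at least 1 such probe set, 63 in all, and the brightest by its mean over the 4 arrays stands for the gene. They are 39 of 18193 genes with a probe set of a single symbol on the array.

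Dorsal root ganglia hold the cell bodies of sensory neurons, their glia and a connective tissue capsule, and lie beside the spine under skeletal muscle. In this study total RNA of freshly dissected ganglia was hybridised to Affymetrix mouse arrays. Per the labels, 2 arrays held RNA from ganglia of 1 level and 2 from ganglia of another level, named here the sample-1 and sample-2 levels, with the arrays numbered 1 and 2 within each. The labels give no treatment other than dissection, no strain, genotype, age or sex, do not name the levels, and do not tell whether separate animals lay behind the arrays. P-values therefore reflect array-to-array spread alone, and that spread may be technical. The values are deposited intensities, which had been scaled to the same trimmed mean on every array, with a median of 25.9 to 27.3 over 45101 probe sets. The summed intensity of 14 sensory neuron markers lay between 56180 and 60812 on the 4 arrays. Without an array of another tissue beside them, this is no test of tissue identity.

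Skeletal muscle shortens when myosin, the motor of the thick filament, pulls on actin, the core of the thin filament. Calcium starts this by binding to troponin, which sits on the thin filament together with tropomyosin. Fast-twitch and slow-twitch fibres use different genes for many of these proteins, so the set of isoforms present tells fibre types apart. Most trunk and limb muscles of the mouse consist mainly of fast fibres. The myosin genes Myh1, Myh2 and Myh4 lie on chromosome 11, and Smpx on chromosome X (GRCm38.p6, RefSeq).

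Promoter sequences are shown for 5 of the genes on which the results turn: Mylpf and Myh4, fast isoforms several-fold higher on 1 array, Mybpc1, a slow isoform with this pattern, and Myh2 and Smpx, the genes that passed the test between levels. Each is the 150 bases before the transcription start in the RefSeq table (GRCm38.p6), written 5′ to 3′ on the strand of the gene. Capitals mark the E-box CAGCTG, a binding motif of the myogenic factors of the MyoD family, CTA and TAG separated by 4 bases, an open form of the motif of MEF2 factors (MEF2-type below), and the TATA box TATAAA, each searched on both strands.
Mylpf: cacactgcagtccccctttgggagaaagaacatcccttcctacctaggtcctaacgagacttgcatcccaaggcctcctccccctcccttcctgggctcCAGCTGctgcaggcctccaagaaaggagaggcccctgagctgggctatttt
Myh4: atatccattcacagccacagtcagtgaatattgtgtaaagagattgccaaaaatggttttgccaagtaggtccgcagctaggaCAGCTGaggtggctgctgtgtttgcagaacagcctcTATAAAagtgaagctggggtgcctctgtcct
Mybpc1: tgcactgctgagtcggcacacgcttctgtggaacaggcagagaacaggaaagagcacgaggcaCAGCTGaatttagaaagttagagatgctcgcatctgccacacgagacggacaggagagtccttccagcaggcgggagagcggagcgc
Myh2: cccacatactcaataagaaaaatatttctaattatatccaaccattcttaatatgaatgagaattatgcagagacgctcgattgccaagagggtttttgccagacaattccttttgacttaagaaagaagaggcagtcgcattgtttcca
Smpx: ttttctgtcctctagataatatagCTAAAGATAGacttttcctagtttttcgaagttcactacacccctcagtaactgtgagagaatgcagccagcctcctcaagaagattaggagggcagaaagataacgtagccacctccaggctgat

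These stretches lie at chr7:127211458-127211607 (Mylpf, + strand), chr11:67237662-67237811 (Myh4, + strand), chr10:88605153-88605302 (Mybpc1, - strand), chr11:67170877-67171026 (Myh2, + strand) and chrX:157698823-157698972 (Smpx, + strand). The CAGCTG match began 51 bases before the start in Mylpf, 67 in Myh4 and 87 in Mybpc1. Myh4 also held TATAAA, 31 bases before its start, and the MEF2-type match of Smpx began 126 bases before its start. None of these letters occurred in the 150 bases shown for Myh2. The table held promoters for 31 of the 39 genes. Within 250 bases before any listed start, CAGCTG occurred in 17 of the 31 (54.8%), against 14.7% of the 27025 genes in the table. The MEF2-type motif occurred in 4 of 31 (12.9%, against 3.70% of all genes) and TATAAA in 6 of 31 (19.4%, against 14.3%). The looser E-box CANNTG, which includes CAGCTG, was present in 26 of 31 (83.9%) and in 69.3% of all genes. CAGCTG occurred in 4 of the 8 fast isoform genes with a promoter in the table and in 4 of the 8 slow ones. These are matches of letters and no measure of binding.

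Most of the muscle genes were several-fold higher on array 2 of the sample-1 level than on the other 3 arrays. The intensities of the 39 genes summed to 3259 and 13476 on arrays 1 and 2 of the sample-1 level, and to 3567 and 2504 on arrays 1 and 2 of the sample-2 level. 32 of the 39 (82.1%) were highest on sample-1 array 2, as were 26.5% of all 27022 probe sets tested. On the scale log2(intensity + 16), 23 of the 39 (59.0%) were at least 2-fold higher on that array than on sample-1 array 1, against 0.681% of the tested probe sets. None of the 39 was at least 2-fold lower there, against 0.303% of the tested probe sets. The median difference between these 2 arrays was 1.23 over the 39 genes and 0.01 over all tested probe sets. This compares 1 array with 1 array, so it has no test. Levels within a gene are compared between arrays throughout, since the intensities of different probe sets are not on a common scale. In bulk RNA, fewer muscle fibres and less muscle RNA per fibre cannot be told apart.

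**Figure D1:**
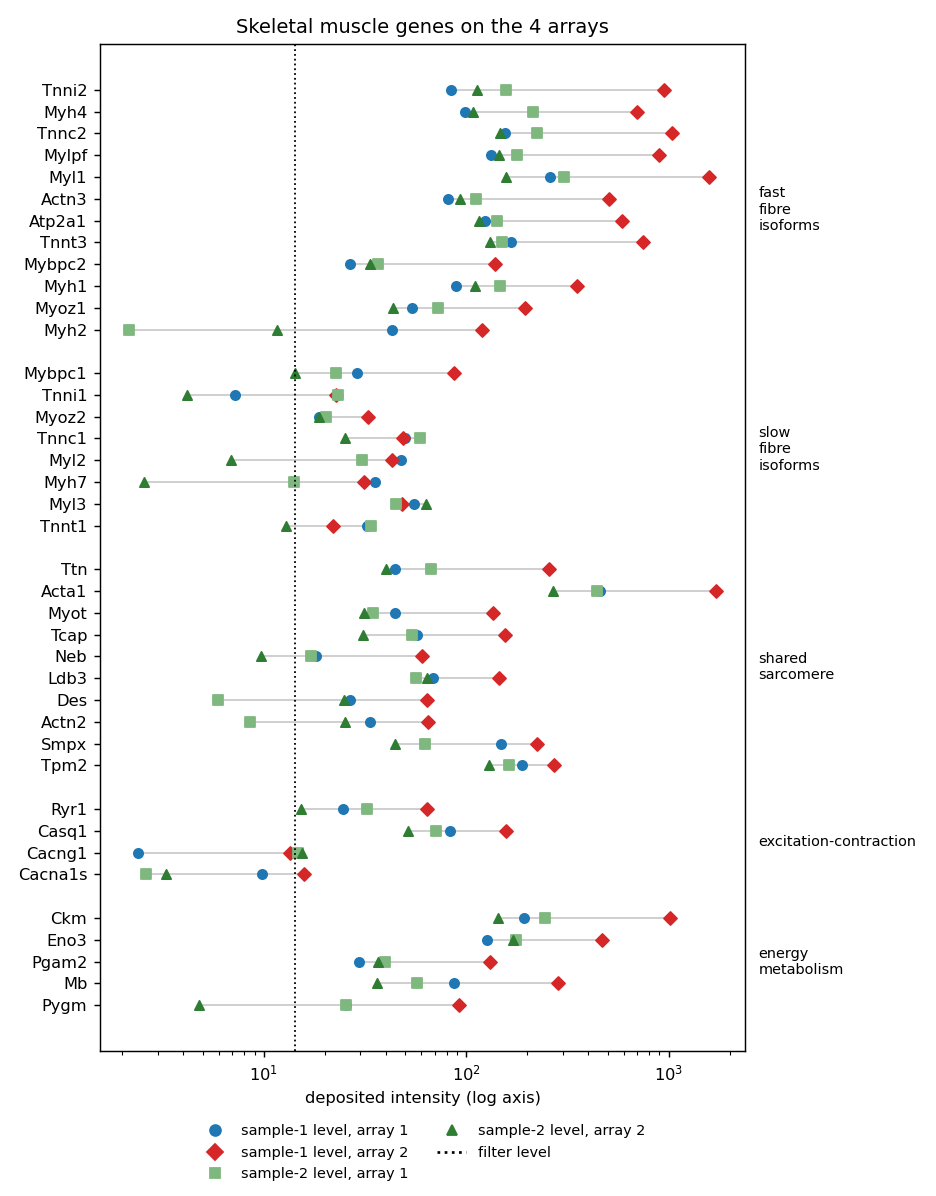
Deposited intensity (log axis) of each of the 39 muscle genes on the 4 arrays, by role; each symbol is 1 array, and the dotted line is the filter level of 14.3. Sample-1 array 2 (red diamonds) is highest for 32 of the 39 genes, all 12 fast isoforms among them, and most of the slow isoforms are dim on every array.

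All 12 fast fibre genes were at least 2-fold higher on array 2 than on array 1 of the sample-1 level, by 2.79-fold to 11.3-fold in intensity. Tnni2, the inhibitory subunit of fast troponin, measured 84.0 on array 1 and 953 on array 2 of the sample-1 level, against 158 and 113 at the sample-2 level. Tnnc2, the calcium-binding subunit of fast troponin, measured 156 and 1040 at the sample-1 level and 223 and 148 at the sample-2 level. Tnnt3, the fast troponin subunit that binds tropomyosin, measured 166 and 745, then 150 and 131. In each of these 3 genes the second sample-1 array stood apart and the other 3 arrays lay within a 2-fold range.

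The fast myosin heavy chain genes were also highest on sample-1 array 2. Myh4, the heavy chain of the fastest fibres, measured 99.1 and 700 at the sample-1 level and 215 and 108 at the sample-2 level. Myh1, another fast heavy chain, measured 88.9 and 353, then 147 and 110. Its probe set can match more than 1 transcript, and its other tested probe set gave 88.4, 331, 161 and 96.4. In both genes sample-1 array 1 lay below both sample-2 arrays. Myh2, the heavy chain of fast oxidative fibres, measured 42.8 and 120 at the sample-1 level and 2.16 and 11.7 at the sample-2 level. Both of its sample-1 arrays lay above both sample-2 arrays, as for Tnnt3. Whether Myh2 differed from its neighbours Myh1 and Myh4 in this was not tested.

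The light chains, which attach to the myosin head, followed the heavy chains. Myl1, the essential light chain of fast muscle, measured 260 and 1582 at the sample-1 level and 305 and 157 at the sample-2 level. Mylpf, the fast regulatory light chain, measured 133 and 892, then 179 and 146. Sample-1 array 1 lay inside the range of the sample-2 arrays for Myl1 and below both for Mylpf.

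The remaining fast genes, Actn3 (an actin-binding protein of the Z-disc), Atp2a1 (the calcium pump of the fast sarcoplasmic reticulum), Mybpc2 (a myosin-binding protein) and Myoz1 (a Z-disc protein), were 6.24-fold, 4.75-fold, 5.20-fold and 3.61-fold higher on array 2 than on array 1 of the sample-1 level. Actn3, for example, measured 81.5 and 509, then 112 and 93.4. No fast isoform was lower on array 2 of that level.

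Of the 8 slow fibre genes, 2 were highest on sample-1 array 2, Mybpc1 and Myoz2. On the log2(intensity + 16) scale the median difference between the sample-1 arrays was -0.07 over the 8, against 2.27 for the 12 fast genes, and 1 of the 8 was at least 2-fold higher on array 2. In intensity 2 were, Mybpc1 by 3.01-fold and Tnni1, which lay below the filter on low signal, by 3.17-fold. Tnnc1, the troponin C of slow and cardiac muscle, measured 49.6 and 48.4 at the sample-1 level and 59.0 and 25.0 at the sample-2 level. Myl3, the slow essential light chain, measured 55.3 and 48.2, then 45.2 and 62.9, and Tnnt1, slow troponin T, 32.5 and 22.1, then 33.7 and 12.9. For these 3 genes the levels overlapped and no array stood apart upwards. Myoz2, a slow Z-disc protein, measured 18.7 and 32.7, then 20.3 and 18.7.

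Myh7, the slow myosin heavy chain, measured 35.2 and 31.2 at the sample-1 level and 14.1 and 2.55 at the sample-2 level. Myl2, the slow regulatory light chain, measured 47.4 and 42.9, then 30.7 and 6.85. In both, the sample-1 arrays lay close together and above both sample-2 arrays, but neither passed the test below. Mybpc1, the slow myosin-binding protein, stood out upwards on sample-1 array 2, with 28.7 and 86.6, then 22.7 and 14.3. Its other 2 probe sets were dimmer. Tnni1, slow troponin I, measured 7.19 and 22.8, then 23.1 and 4.15. The slow genes were dim, with none above 86.6 on any array, and near the filter level of 14.3 a ratio carries little information.

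In all 8 pairs of fast and slow isoforms of the same protein, the fast gene differed more between the sample-1 arrays than the slow gene. The excess was smallest for Mybpc2 over Mybpc1, at 0.66 on the log2 scale, and had a median of 2.59 and a maximum of 2.75, for Myh4 over Myh7. Between the sample-2 arrays the fast gene exceeded the slow one in 3 of 8 pairs, with a median of -0.29 for array 1 minus array 2. The 8 pairs share the same 2 arrays in each case and are no replicates, so no test was made.

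**Figure D2:**
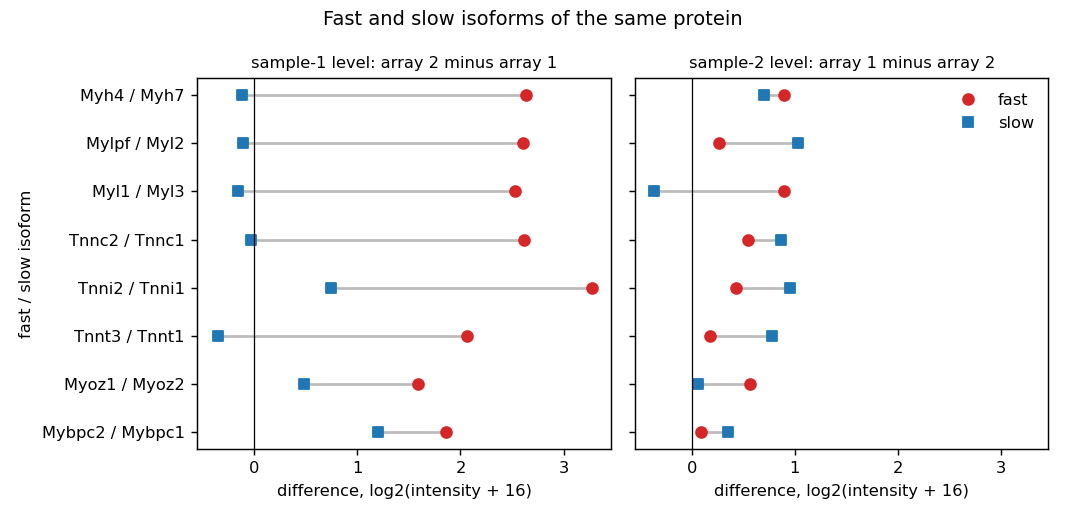
Difference between the arrays of a level on the log2(intensity + 16) scale for 8 pairs of a fast (red circles) and a slow (blue squares) isoform, within the sample-1 level (left, array 2 minus array 1) and the sample-2 level (right, array 1 minus array 2). On the left every fast isoform lies to the right of its slow partner; on the right 3 of 8 do.

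The 10 sarcomere genes that fast and slow fibres share were all highest on sample-1 array 2, and 7 of them by at least 2-fold in intensity over array 1, or 5 on the log2(intensity + 16) scale. Acta1, the actin of skeletal muscle, measured 459 and 1714 at the sample-1 level and 445 and 268 at the sample-2 level. Ttn, the giant spring protein titin, measured 44.4 and 257, then 66.8 and 40.2. Myot (myotilin) measured 44.3 and 136, then 34.5 and 31.4, Tcap (telethonin, which anchors titin) 57.0 and 155, then 53.7 and 30.8, and Neb (nebulin, which spans the thin filament) 18.1 and 60.7, then 17.2 and 9.68. By the brightest probe sets, both sample-1 arrays lay above both sample-2 arrays in 9 of the 10 genes, all but Ttn. Of all tested probe sets, 20.1% had this order. For Acta1, Tcap, Neb and Des sample-1 array 1 lay close to the higher sample-2 array.

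The others of this group differed less between the sample-1 arrays. Ldb3, a Z-disc protein, measured 68.3 and 144, then 56.7 and 63.8. Des, the intermediate filament desmin, which smooth muscle also makes, measured 26.6 and 63.8, then 5.95 and 24.8, and Actn2, a Z-disc actin-binding protein, 33.5 and 64.8, then 8.54 and 25.1. Smpx, a small protein of striated muscle, measured 148 and 223, then 62.6 and 44.4. Both of its sample-1 arrays lay more than 2-fold above both sample-2 arrays. Tpm2, a tropomyosin, measured 189 and 271, then 162 and 130.

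Probe sets of the same gene did not always give the same size. The brightest of Tpm2 was 1.43-fold higher on array 2 than on array 1 of the sample-1 level, and its other 3 were 2.71-fold to 3.87-fold higher. For Ldb3 the brightest gave 2.11-fold and the other 2 gave 1.14-fold and 1.15-fold. For Tnni2 the ratio of 11.3 stood beside 5.74 for its other tested probe set. Of the 13 tested probe sets that were not the brightest of their gene, 7 were at least 2-fold higher on sample-1 array 2 on the log2(intensity + 16) scale. The order between the levels was not always kept either. The other tested probe set of Des gave 8.43 and 28.8, then 21.9 and 13.8. For Ldb3 1 gave 28.3 and 32.4, then 33.5 and 31.5, and the remaining 1 kept the order. For Tpm2 the levels overlapped at 81.1 and 219, then 95.2 and 85.3, and at 27.6 and 105, then 30.7 and 26.5. The remaining probe set of Tpm2 kept the order.

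The 5 genes of energy metabolism were all at least 2-fold higher on sample-1 array 2. Ckm, the creatine kinase that regenerates ATP in muscle, measured 193 and 1012 at the sample-1 level and 244 and 143 at the sample-2 level. Eno3, the muscle enolase of glycolysis, measured 126 and 470, then 177 and 171, and Pgam2, the muscle phosphoglycerate mutase, 29.6 and 131, then 39.7 and 36.7. Sample-1 array 1 was the lowest of the 4 arrays for both of these glycolytic enzymes. Pygm, which breaks down muscle glycogen, measured 25.6 and 92.6, then 25.6 and 4.80.

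Mb, the oxygen-binding protein myoglobin of oxidative fibres, measured 86.8 and 285, then 57.1 and 36.1. In Mb both sample-1 arrays lay above both sample-2 arrays, which was not so for the other 4 genes of the group.

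Of the 4 genes that couple the membrane signal to calcium release, 2 passed the filter on low signal. Ryr1, the calcium release channel, measured 24.6 and 64.2, then 32.4 and 15.3, and Casq1, which stores calcium in the sarcoplasmic reticulum, 82.8 and 157, then 70.6 and 51.7. On the log2(intensity + 16) scale neither reached a 2-fold difference between the sample-1 arrays, with 0.98 and 0.81. Cacna1s and Cacng1, subunits of the muscle calcium channel, did not pass the filter, with no array above 15.8 for the first or 15.5 for the second.

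Between the levels, 2 of the 36 muscle genes that passed the filter on low signal were lower at the sample-2 level and 0 were higher (limma, Benjamini-Hochberg over all 27022 probe sets). Of all tested probe sets, 0.400% were lower and 0.222% higher by the same rule. An unadjusted p under 0.05 with a negative difference was found for 20 of the 36, against 5.53% of all tested probe sets. With a positive difference it was found for 0. The 20 include Myh2 and Myh7, whose sample-2 values all lie below the filter level. The genes were also chosen with earlier results of these data known, so the excess over 5.53% is no support for a difference. Smpx fell from 186 ± 53.1 (SD, n = 2) to 53.5 ± 12.9 (SD, n = 2), a log2 difference of -1.52 ± 0.20 (SE, limma adjusted p = 0.00628). Myh2 fell from 81.2 ± 54.3 (SD, n = 2) to 6.92 ± 6.73 (SD, n = 2), a difference of -1.99 ± 0.35 (limma adjusted p = 0.0319). Both sample-2 values of Myh2 lie below the filter level, so it entered the test only through the sample-1 arrays, where it is high, and its call is no support for a difference. The size depends on the pseudocount: it was -3.52 with a pseudocount of 1 and -0.98 with 64.

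Of the 36 tested genes 35 had a negative difference, with a median of -0.95 against 0.00 over all tested probe sets, and Myl3 at 0.04 was the exception. In 16 of the 36 both sample-2 arrays lay below both sample-1 arrays, and in 0 above. The first order held for 20.1% of all tested probe sets and the second for 21.1%. The 35 and the 16 include Myh2 and Myh7, which entered the test only through the sample-1 arrays. Cacna1s, which was not tested, also had the first order, and Cacng1, also not tested, had the second. Some large differences did not pass. Acta1 differed by -1.33 ± 0.42 (limma adjusted p = 0.234), Myl1 by -1.50 ± 0.56 (limma adjusted p = 0.337) and Mb by -1.51 ± 0.37 (limma adjusted p = 0.108).

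Many of these differences depended on sample-1 array 2, but not all. Those of Myh7 and Myl2, -1.06 and -0.90, were -1.12 and -0.96 without it. The median of the fast genes went from -1.03 to 0.22 without sample-1 array 2, and that of the tested slow genes from -0.23 to -0.36. Without it, 1 of the 36 genes was lower and 0 higher, Smpx with a limma adjusted p of 0.0269, while 0.200% of all probe sets were lower and 0.226% higher. That fit has 1 array at the sample-1 level, which is assumed to vary like the sample-2 arrays. Myh2 then had a difference of -1.39 (limma adjusted p = 0.150), and it also lost the call without sample-2 array 1 (limma adjusted p = 0.0718). Without sample-1 array 1, so with array 2 standing alone for its level, 25 of the 36 were lower, against 0.315% of all probe sets. With the array number as a block, 15 were lower, against 1.71% of all.

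With sample-1 array 1 alone set against the sample-2 mean, the median difference of the 36 tested genes was -0.22, and the roles differed in sign. It was 0.22 for the 12 fast genes, from -1.39 for Myh2 to 0.58 for Tnni2. It was -0.36 for the 7 tested slow genes, -0.35 for the 10 shared sarcomere genes and -0.04 for the 5 metabolic genes. By the brightest probe sets, both sample-2 arrays lay below sample-1 array 1 for 2 of the 12 fast genes, Myh2 and Tnnt3. The same held for 9 of the 10 shared sarcomere genes, and for 33.3% of all tested probe sets. Besides Smpx and Myh2, the most negative were Myh7 at -1.12, Myl2 at -0.96 and Mb at -0.74, none of which passed with all 4 arrays. Both sample-2 values of Myh7 lie below the filter level, so Myh7, like Myh2, entered the test only through the sample-1 arrays. Myl2 lies below the filter level on sample-2 array 2.

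**Figure D3:**
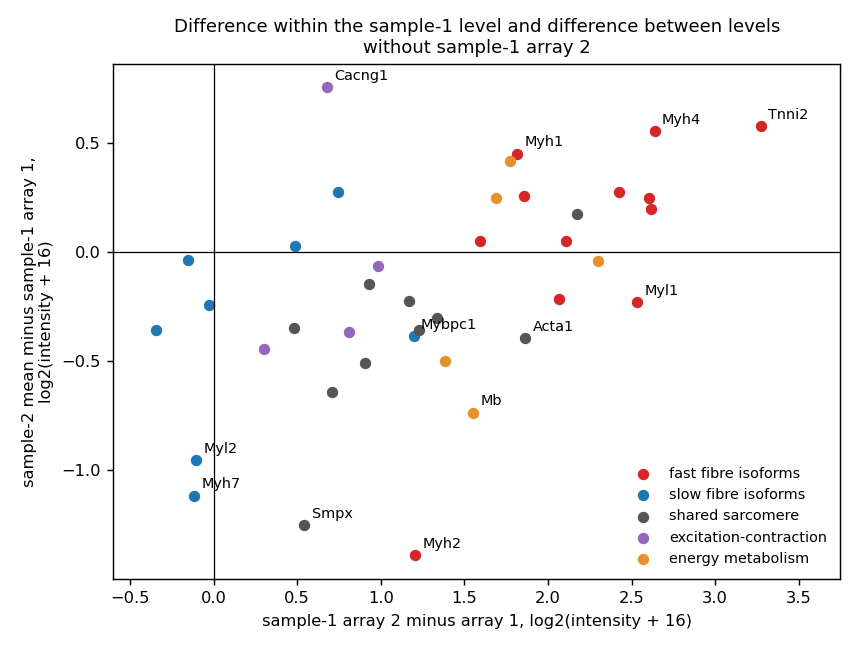
For each of the 39 genes, the difference of sample-1 array 2 from array 1 (horizontal) and of the sample-2 mean from sample-1 array 1 (vertical), both on the log2(intensity + 16) scale and sharing sample-1 array 1. Fast isoforms spread to the right near 0 on the vertical axis, while Myh2, Smpx, Myh7 and Myl2 lie at or below -0.96. Both sample-2 values of Myh2 and of Myh7 lie below the filter level.

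Within the sample-2 level, array 1 was the higher for 32 of the 39 genes, and for 49.4% of all tested probe sets. On the log2(intensity + 16) scale the median difference over the 39 was 0.37, against 1.23 for array 2 minus array 1 of the sample-1 level. The 8 slow genes went the other way, with a median of 0.74 at the sample-2 level and -0.07 at the sample-1 level. Of the 39, 2 genes, Myl2 and Pygm, reached 2-fold, against 0.451% of the tested probe sets. Both have an array 2 value below the filter level. Myh4 at 0.89 and Myl1 at 0.89 had the largest differences among the fast genes. The other 7 genes had the opposite order, most of all Des at -0.90, Actn2 at -0.74 and Myh2 at -0.61 for array 1 minus array 2, and these 3 have a sample-2 value below the filter level.

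Of 70 further muscle genes, 65 had a probe set. On the same scale 10 of these were at least 2-fold higher on array 2 than on array 1 of the sample-1 level. The share of all tested probe sets was 0.681%. The median difference of the 65 genes was 0.43. Those with the largest differences were Trdn (triadin, a partner of the calcium release channel), 29.5 and 145, then 53.5 and 42.5, Ampd1 (muscle AMP deaminase), 4.02 and 47.6, then 3.40 and 7.89, and Csrp3 (a muscle LIM protein), 23.4 and 101, then 3.58 and 13.4. Many of these genes were dim, and 42 of the 65 passed the filter, Ampd1 not among them. Both sample-2 values of Csrp3 lie below the filter level. Pvalb, a calcium-binding protein of fast fibres that proprioceptive neurons also make, was the 1 gene of the 42 that passed between the levels, lower at the sample-2 level by 1.64 ± 0.15 on the log2 scale (limma adjusted p = 0.000397). Its values of 1217 and 1751, then 508 and 415, were 1.44-fold apart on the sample-1 arrays. Of all tested probe sets 0.400% were lower and 0.222% higher in that fit.

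Ranked by how far sample-1 array 2 lay above the mean of the other 3 arrays, the first 10 of 13542 tested genes were all among the 39 muscle genes, led by Tnni2, Myl1 and Tnnc2. Of the first 20, 17 were among the 39, 2 on the lists of further muscle genes and 1, Car3, on a list of fat genes. The list of 39 had been drawn up with earlier results of these arrays known. Of genes on no list, Cmya5, which encodes a muscle protein, came first, at rank 27, with 32.3 and 101, then 17.5 and 33.1. Ankrd2 and Mylk4, also known from muscle, came at ranks 48 and 43. The 12 such genes named by the rule also held Klf14, Klk1b21, Stra6, Pmp2, Ntn5, Batf, Mfap2, Nobox and Acsf2. Pmp2 and Ntn5 stood there with both sample-1 arrays high and both sample-2 arrays low. Nobox and Acsf2 lay below the filter level on the other 3 arrays, so they passed the filter only through the array they are ranked on. Batf, Stra6 and Mylk4 lay below it on both sample-2 arrays, and Mylk4 measured 15.1 on sample-1 array 1. Klk1b21 lay below it on array 1 of each level, Klf14 and Ntn5 on sample-2 array 2, and Mfap2 on sample-1 array 1.

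Markers of other cell types were counted on the same log2(intensity + 16) scale, on which dim genes can hardly reach 2-fold. Of all tested probe sets, 0.681% were at least 2-fold higher on array 2 than on array 1 of the sample-1 level. A count of 0 in a short list therefore says little. Of 14 sensory neuron genes and 7 glial genes, all of which passed the filter on low signal, none was at least 2-fold higher on array 2 than on array 1 of the sample-1 level. The same held for 10 smooth muscle and pericyte genes (8 passed the filter), 10 tendon and fibroblast genes (9 passed), 8 bone and cartilage genes (6 passed) and 5 red cell genes (3 passed). It held too for 9 cardiac muscle genes and 9 myogenic regulators, but 2 and 3 of these passed the filter, so their counts say little. In intensity 3 bone and cartilage genes, 1 cardiac gene and 3 myogenic regulators were at least 2-fold higher, of which 1, 0 and 1 passed the filter. Among 8 fat genes (5 passed) 1 was at least 2-fold higher on either scale, Car3, a carbonic anhydrase that muscle also makes, with 309 and 1149, then 356 and 303. Of the cardiac genes, Myh6 and Tnni3 lay at or below 15.9 on every array, and of the myogenic regulators Myod1, Myf5 and Myog at or below 18.6. Both lists also held brighter genes. The 9 cardiac genes summed to 467 and 444, then 489 and 653. The 9 myogenic regulators summed to 364 and 403, then 399 and 302.

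**Figure D4:**
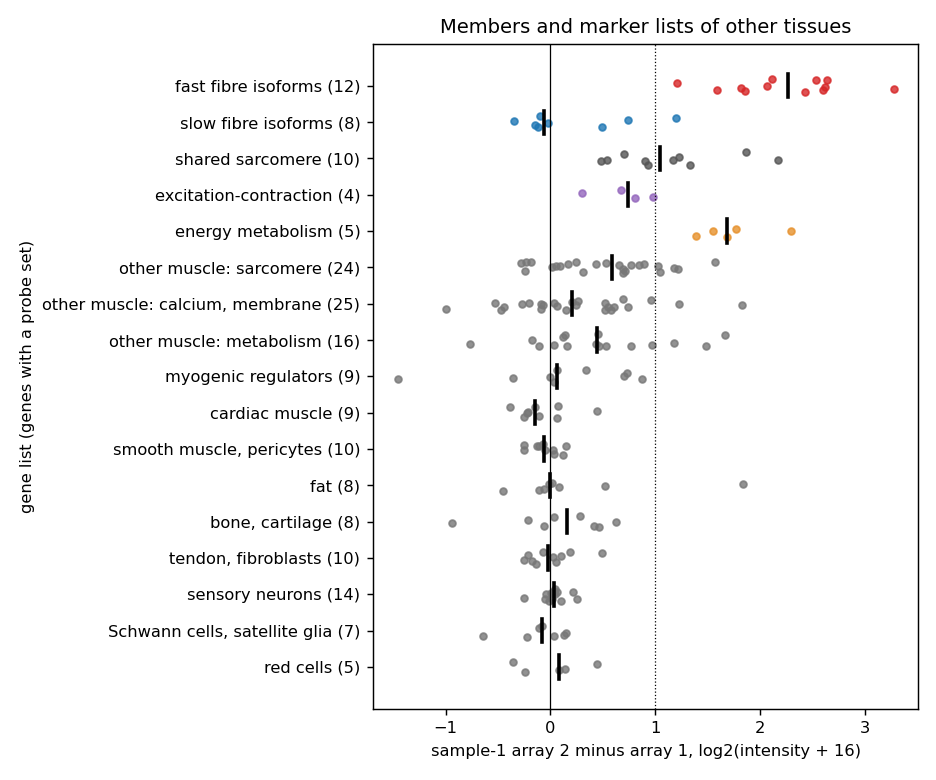
Difference of sample-1 array 2 from array 1 on the log2(intensity + 16) scale for the 39 muscle genes by role (coloured) and for marker lists of other tissues (grey); each point is a gene, vertical bars are medians, and the dotted line marks 2-fold. All 12 fast isoforms lie beyond the dotted line, and apart from muscle lists 1 gene, Car3, does. Of all tested probe sets 0.681% lie beyond it.

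Of the marker lists of other cell types, those of tendon, red cells and sensory neurons held genes that passed between the levels, in both directions. Of 9 tested tendon and fibroblast genes 4 (Dcn, Lum, Col3a1 and Col1a2) were lower at the sample-2 level in the same limma fit. Over all tested probe sets 0.400% were lower and 0.222% higher in that fit. The summed intensity of the tendon and fibroblast list was 8766 and 7881, then 6086 and 5587. Of 3 tested red cell genes 1, Slc4a1, was higher, and the red cell list summed to 201 and 216, then 359 and 491. Of the 14 sensory neuron genes 1, Tac1, was higher at the sample-2 level. No tested gene passed on the lists of smooth muscle and pericytes (8 tested), glia (7), bone and cartilage (6) and fat (5). The same held for the myogenic regulators (3 tested) and cardiac muscle (2). The part of these tissues in the values of Smpx and Myh2 was not tested.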

How the data were processed

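The authors deposited 1 intensity per probe set and array on a linear scale. Every array has the same mean after trimming 2% at each end, so the deposited values had been scaled; how, and with which software, is not given in the sources used here, and detection calls were not used. Intensities were taken as log2(intensity + 16), the 64 control probe sets left out, and probe sets with a mean below the 40th percentile (intensity 14.3) filtered, which left 27022. These were fitted with limma 3.58.1 (R 4.3.3, intensity trend), sample-2 minus sample-1 level, on 4 arrays with 2 residual degrees of freedom. An adjusted p under 0.05 counted as passed. An exact permutation test of 2 against 2 arrays cannot reach this. The code was tested on simulated data.

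Gene names came from the platform annotation (34945 probe sets with 1 symbol, 932 with several, 9160 with none), and those with several symbols named no gene. All 39 genes matched the RefSeq table (GRCm38.p6). Of 163 further genes listed, 145 had a probe set. The genes and lists were chosen with earlier results of these data known. Every muscle gene may be named, and other genes by list rank, by a passed test, or as the 12 unlisted genes highest on sample-1 array 2. Alternatives were other pseudocounts, filters, normalizations, variance models and probe sets, the array number as a block, and each array left out. Protein sequences were not used here.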

Additional observations from a re-analysis of the deposited data

How the results depend on the processing

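The number of muscle genes lower at the sample-2 level was 2 and became 0 with no filter and 0 without the intensity trend in the variance, 1 with a filter at the 60th percentile, which left out Myh2, and 15 with the array number as a replicate block. Over all tested probe sets 108 were lower with the settings reported, 2 with no filter, 0 without the trend, 122 with the 60th percentile and 462 with the block. With single arrays left out the muscle count ranged from 1 to 25, and that of all probe sets from 54 to 174. The muscle count stayed at 2 with pseudocounts of 1 and 64, quantile normalization, centring on array medians and with _x_at and _s_at probe sets left out. No gene was higher under any of these settings. Array numbers pair nothing the labels describe, and the deviations of same-numbered arrays correlated at 0.03 across probe sets, so the block is no evidence of pairing. With no filter Smpx had a limma adjusted p of 0.227 and without the trend 0.398. The count of genes whose levels did not overlap was 16 (41.2% of all tested probe sets did not), 9 of 22 with the filter at the 60th percentile (43.5% of all), and 20 to 32 with each array left out, where 69.4% to 71.2% of all did not. Without sample-1 array 2 these were 16 lower and 8 higher genes. The median difference over the muscle genes, -0.95, ranged from -1.58 to -0.22 with each array left out, that of the slow genes, -0.23, from -0.66 to -0.16, that of the fast genes, -1.03, from -2.22 to 0.22, and that of fast minus slow partners over the 7 pairs with a tested slow gene, -0.53, from -2.20 to 0.44. The count of genes at least 2-fold higher on array 2 than on array 1 of the sample-1 level, 23, was 17 with a pseudocount of 64, 17 with the filter at the 60th percentile and 26 with a pseudocount of 1. With 2 arrays a level, no gene could be tested for an outlying array, and the absence of detection calls limits what can be said of genes near the filter level.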
